A study of Homo sapiens with 6 samples.

Results

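Granins are the bulk cargo proteins of dense core granules, the vesicles in which neuroendocrine cells store peptide hormones and catecholamines. The 10 genes described here encode 6 proteins of the extended granin family (CHGA, CHGB, SCG2, SCG3, SCG5 and VGF), 2 prohormone convertases (PCSK1 and PCSK2), carboxypeptidase E (CPE) and the granule membrane protein PTPRN. They were chosen with earlier results of these data known and were taken by name. Each name had 1 row among the 58735 genes of the deposited tables. RNA was sequenced from SY5Y, a human neuroblastoma line of sympathetic origin, in 3 libraries with DLX5 overexpression and 3 control libraries. DLX5 is a homeodomain transcription factor, and the study's title sets it beside MYCN in neuroblastoma. All 6 libraries came from the same line, cultured in DMEM/F12 with fetal bovine serum. The series describes 1 constructed overexpression line, and its labels say neither what the control cells carried nor whether replicates were separate cultures. The p-values below therefore set differences against the spread between libraries that may be technical replicates.

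Granin precursors enter the regulated secretory pathway at the trans-Golgi network, where they aggregate and are packed into forming granules. Inside the granule, PCSK1 and PCSK2 cut precursors after pairs of basic residues, and CPE trims the basic residues left at the new ends. SCG5, also called 7B2, is the chaperone that PCSK2 needs to mature. In neuroblastoma and in the adrenal medulla, CHGA is a standard neuroendocrine marker, and several granin genes are described as targets of CREB acting through a cAMP response element (CRE) near the start of transcription.

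Total counts per library ran from 14644077 to 16886026, and mitochondrial genes held 8.21% ± 0.795 of the counts in DLX5 libraries and 7.48% ± 0.404 in controls (SD, n = 3 each). The targeted gene DLX5 (chr7:97020392-97024950, minus strand, GRCh38) had 1609 ± 59.1 CPM (counts scaled to the TMM-adjusted library total) in DLX5 libraries and 12.8 ± 0.804 CPM in controls. Gene counts do not separate the introduced copy of DLX5 from the resident one. The change was broad: by edgeR's quasi-likelihood test, with Benjamini-Hochberg adjustment and a threshold of 0.05, 28.8% of the 17269 tested genes were lower in DLX5 libraries and 29.8% were higher. All 7 neuroblastoma and sympathetic markers were lower, with a summed level of 1817 to 1926 CPM in DLX5 libraries and 4562 to 4919 CPM in controls, so the line's defining markers were present in both groups. Of 7 fibroblast markers 6 were higher and 1 did not pass, with sums of 6329 to 6560 CPM in DLX5 libraries and 1241 to 1284 CPM in controls, mostly of collagen genes. Epithelial markers summed to 338 to 361 CPM in DLX5 libraries and 18.5 to 21.6 CPM in controls, with 3 of 5 higher, 1 lower and 1 not passing. Schwann markers summed to 8.33 to 8.54 CPM in DLX5 libraries and 4.02 to 5.51 CPM in controls, with 2 of 4 tested higher and 1 lower, and SOX10 was not tested, with 5 counts over the DLX5 libraries and 12 over the controls. Endothelial and blood markers summed to 2.07 to 2.89 CPM in DLX5 libraries and 0.719 to 1.77 CPM in controls, with 1 of 3 tested higher, and CDH5 and PTPRC had at most 4 counts in either group. The part of these marker changes in the granin results was not tested, and in bulk RNA fewer cells of a type cannot be told apart from less RNA per cell.

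Promoters were looked up in RefSeq (GRCh38.p14) as 250 bases before to 50 bases after each start, and 8 of the 10 genes matched, with 11 promoters; CHGB and SCG2 were not matched. The 120 bases before the start are printed below for the 3 genes with a full CRE (CHGA, VGF and PCSK1) and for the 2 genes whose RNA was higher in DLX5 libraries (SCG5 and PCSK2). Each is written 5′ to 3′ on the strand of its gene, and capitals mark the CRE. For PCSK1 and PCSK2 the first matched promoter is printed and the second is not. The CHGA stretch is chr14:92923030-92923149 (plus strand), VGF is chr7:101165570-101165689 (minus), PCSK1 is chr5:96433249-96433368 (minus), SCG5 is chr15:32641590-32641709 (plus) and PCSK2 is chr20:17225987-17226106 (plus).
CHGA: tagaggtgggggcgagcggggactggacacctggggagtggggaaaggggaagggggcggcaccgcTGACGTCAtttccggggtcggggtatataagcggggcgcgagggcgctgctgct
VGF: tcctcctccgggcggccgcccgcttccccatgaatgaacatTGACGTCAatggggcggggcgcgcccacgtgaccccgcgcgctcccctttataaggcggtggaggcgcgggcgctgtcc
PCSK1: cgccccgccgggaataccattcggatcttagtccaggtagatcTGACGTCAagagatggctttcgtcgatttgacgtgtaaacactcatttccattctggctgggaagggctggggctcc
SCG5: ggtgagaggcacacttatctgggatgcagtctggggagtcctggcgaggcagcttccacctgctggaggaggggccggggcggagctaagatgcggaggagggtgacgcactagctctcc
PCSK2: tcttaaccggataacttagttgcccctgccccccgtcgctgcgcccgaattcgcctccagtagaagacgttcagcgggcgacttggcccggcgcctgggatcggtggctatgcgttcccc

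The CRE was searched as TGACGTCA on both strands; it reads the same on each. Its first base lay 54 bases before the RefSeq start in CHGA, 79 bases before in VGF and 77 bases before in PCSK1, which is 3 of the 11 promoters, and 1.85% of the 35116 RefSeq promoters of this length held a match. Of the 3 genes with the element, CHGA and VGF were lower in DLX5 libraries, and PCSK1 had too few counts to be tested. Of the matched genes without it, SCG3, CPE and PTPRN were also lower, and SCG5 and PCSK2 were higher. Over all tested genes 28.8% were lower and 29.8% higher. Whether the CRE bears on any of these changes was not tested. CACGTG, the E-box of MYC proteins, was found in the VGF promoter alone, 54 bases before its start, against 7.26% of all promoters. TAATTA, a core letter pattern of homeodomain proteins, was in 0 of the 11 promoters and in 4.84% of all promoters, which says only that these letters are not in these windows. The GC box GGGCGG was in 8 of the 11 promoters, against 45.0% of all promoters. The single CPE promoter, whose start lies 17814 bases inside the file's gene, did not hold it. The second PCSK2 promoter held 5 matches of the GC box and the first held 0. TATAAA, taken here as the TATA box, was in the VGF promoter, on the strand opposite to the gene, and in the other PCSK1 promoter. It was in 11.5% of all promoters. The search took these exact letters only. The printed CHGA and VGF stretches hold TATAAG on the strand of their gene, which it does not count. No CRE or E-box match overlapped a match of another motif. The RefSeq start lay 70 bases downstream of the 5′ end of the file's gene for CHGA, 24 for VGF, 34 for SCG5, 0 for the first PCSK2 promoter and 895 for the first PCSK1 promoter. These matches are letters in a sequence, and binding was not measured.

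**Figure D1:**
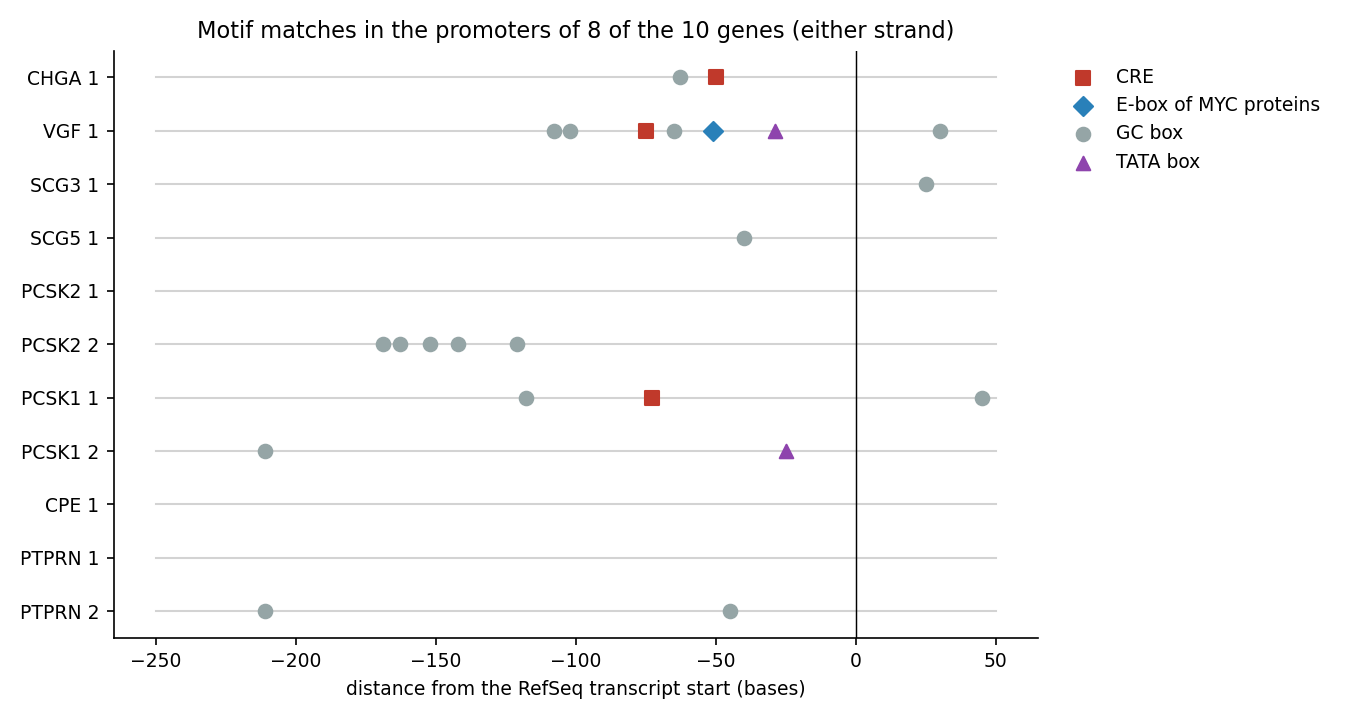
Motif matches on either strand in the 11 RefSeq promoters of 8 of the 10 genes; the x axis is the distance of the match's centre from the RefSeq start in bases, and each line is 1 promoter, numbered where a gene has several. A CRE (square) lies in 1 promoter each of CHGA, VGF and PCSK1, and the E-box (diamond) is in VGF alone.

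Granin RNA fell in DLX5 libraries, with 1 exception. Of the 6 granin genes, 5 were lower (CHGA, SCG2, SCG3, VGF and CHGB) and SCG5 was higher. Of the 4 protease and membrane genes, CPE and PTPRN were lower, PCSK2 was higher, and PCSK1 had too few counts to be tested. In all, 7 of the 9 tested genes were lower, where 28.8% of all tested genes were, and 2 were higher, where 29.8% were. Of the 2 higher genes, PCSK2 passed the filter on low counts only through its DLX5 libraries. The median log2 fold change of the 9 genes was -1.05, beside -0.0018 over all tested genes. In each of these 9 genes the 3 DLX5 libraries did not overlap the 3 controls, and of all tested genes 30.8% had every DLX5 library below every control and 31.7% above.

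**Figure D2:**
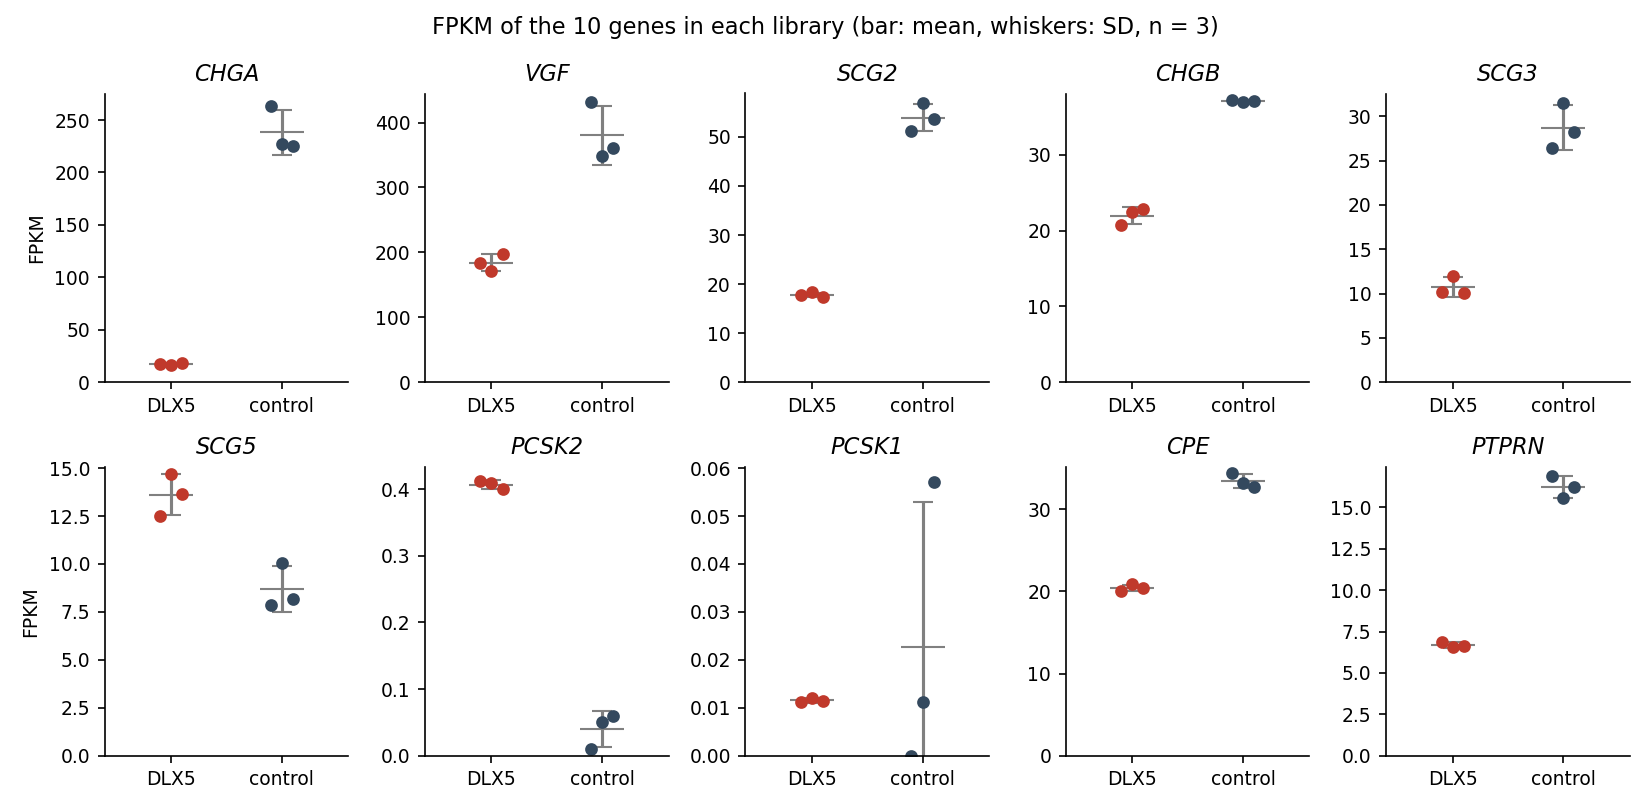
FPKM of the 10 genes in each library, DLX5 libraries at the left of each panel. FPKM are the authors' values, read counts divided by gene length and by a scaled library total. Points are libraries, the bar is the mean and the whiskers are 1 SD (n = 3). The groups separate in 9 genes, with SCG5 and PCSK2 higher in DLX5 libraries, and overlap in PCSK1, where the lower control whisker passes 0 and is cut at the axis.

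CHGA (ENSG00000100604, chr14:92923080-92935293, plus strand), which encodes chromogranin A, the precursor of vasostatin, pancreastatin and catestatin, had the largest fall of the 9 tested genes. It stood at 17.8, 16.3 and 18.6 FPKM in DLX5 libraries, against 263, 227 and 225 FPKM in controls. Every DLX5 library was far below every control, and the 3 DLX5 libraries lay close together. Its counts were 926, 787 and 958 in DLX5 libraries, against 12268, 11856 and 11523 in controls. The log2 fold change was -3.76 ± 0.08, which is 13.5-fold lower, with an edgeR adjusted p of 4.36e-24. Here and below, a log2 fold change is edgeR's estimate ± a standard error computed from that estimate and the test's F statistic. Only 22 of the 17269 tested genes, CHGA among them, had a log2 fold change this low or lower. Among the 13823 tested protein-coding genes, 2426 had a higher mean FPKM than CHGA in DLX5 libraries and 83 did in controls.

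CHGB (ENSG00000089199, chr20:5911430-5925361, plus strand), the paralogous cargo protein chromogranin B, moved much less. It had 20.7, 22.4 and 22.8 FPKM in DLX5 libraries, against 37.2, 36.9 and 37.1 FPKM in controls. The 3 controls were almost equal and all DLX5 libraries were below them. CHGB was 1.69-fold lower, a log2 fold change of -0.75 ± 0.06 (edgeR adjusted p = 3.04e-11). The CHGA to CHGB ratio of FPKM was 0.800 ± 0.066 in DLX5 libraries and 6.42 ± 0.558 in controls (SD, n = 3 each), so CHGA was the more abundant of the pair in controls and the less abundant in DLX5 libraries. An exact two-sided permutation test of the log2 ratio gave p = 0.1, the smallest value that 3 libraries against 3 allow.

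SCG2 (ENSG00000171951, chr2:223596940-223602503, minus strand) encodes secretogranin II, the precursor of secretoneurin. Its level was 17.8, 18.3 and 17.4 FPKM in DLX5 libraries, against 51.3, 56.9 and 53.6 FPKM in controls. Levels were tightly grouped within each group and far apart between them, 3.02-fold lower with DLX5 (log2 fold change -1.60 ± 0.06, edgeR adjusted p = 1.77e-17). SCG3 (ENSG00000104112, chr15:51681353-51721031, plus strand) encodes secretogranin III, which links chromogranin A to the granule membrane. It had 10.2, 12.0 and 10.1 FPKM in DLX5 libraries, against 26.5, 31.5 and 28.2 FPKM in controls. SCG3 was lower in each DLX5 library than in any control, by 1.42 ± 0.08 on the log2 scale (edgeR adjusted p = 1.89e-14), or 2.67-fold.

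VGF (ENSG00000128564, chr7:101162509-101165593, minus strand), a nerve growth factor-inducible precursor of several secreted peptides, was the most abundant of the 10 genes in both groups. Its level was 183, 171 and 198 FPKM in DLX5 libraries, against 432, 348 and 361 FPKM in controls. The groups did not overlap, and control library 1 was the highest of the 6. VGF was 2.06-fold lower, a log2 fold change of -1.05 ± 0.07 (edgeR adjusted p = 1.98e-12). It nevertheless stayed near the top of the ranking, with 106 of 13823 coding genes above it in DLX5 libraries and 44 in controls.

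SCG5 (ENSG00000166922, chr15:32641676-32697098, plus strand), the PCSK2 chaperone, was the granin family gene that rose. It stood at 12.5, 14.7 and 13.6 FPKM in DLX5 libraries, against 7.84, 10.1 and 8.16 FPKM in controls. All DLX5 libraries were above all controls, and control library 2 was the control closest to them. The log2 fold change was 0.65 ± 0.10, or 1.56-fold, with an edgeR adjusted p of 2.96e-06. The antisense gene AC123768.1 overlaps SCG5 and held 13 counts over the 6 libraries, against 2388 for SCG5.

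PCSK2 (ENSG00000125851, chr20:17226107-17484578, plus strand) encodes prohormone convertase 2, the client of SCG5, and was also higher, at a low level. It had 49, 45 and 47 counts in DLX5 libraries, against 1, 6 and 7 counts in controls. In FPKM this was 0.412, 0.409 and 0.400 in DLX5 libraries, against 0.00940, 0.0504 and 0.0598 in controls. The DLX5 libraries were nearly equal and each control was far below them. The ratio of the summed counts, scaled for library size, was 9.97, with a 95% interval of 5.75 to 18.7 that covers counting error only. The edgeR log2 fold change was 3.29 ± 0.38 with an adjusted p of 3.75e-08, and on the scale of log2(FPKM + 1), where low genes are compressed, the difference was 0.44. PCSK2 passed the filter on low counts only through its DLX5 libraries. At its control level it could enter the test only by rising, so its call could have only that direction. PCSK2 stayed a low-level transcript in both groups, with 12854 of 13823 coding genes above it in DLX5 libraries and 13654 in controls.

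PCSK1 (ENSG00000175426, chr5:96390415-96434143, minus strand), the other neuroendocrine convertase, had 1 count in each DLX5 library, against 0, 1 and 5 counts in controls. These ranges overlap, and a difference was not detectable at this depth. The scaled ratio was 0.495, with a 95% counting interval of 0.0801 to 2.32. The antisense gene AC104123.1 within PCSK1 held as many counts, 9 over the 6 libraries, as PCSK1 itself, and no source used here gives the strand setting.

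CPE (ENSG00000109472, chr4:165361194-165498320, plus strand) encodes the exopeptidase that works after the convertases. It had 20.1, 20.9 and 20.4 FPKM in DLX5 libraries, against 34.4, 33.2 and 32.8 FPKM in controls. CPE was 1.64-fold lower, with little spread in either group (log2 fold change -0.71 ± 0.06, edgeR adjusted p = 2.40e-10). PTPRN (ENSG00000054356, chr2:219289623-219309648, minus strand), known as IA-2, is a catalytically inactive receptor-type phosphatase of the granule membrane and an autoantigen in type 1 diabetes. Its level was 6.89, 6.56 and 6.64 FPKM in DLX5 libraries, against 16.9, 15.6 and 16.3 FPKM in controls. No DLX5 library reached the lowest control, and PTPRN fell by 1.28 ± 0.06 on the log2 scale, 2.42-fold (edgeR adjusted p = 1.36e-15). When the test asked for a change beyond 2-fold, CHGB, VGF, CPE and SCG5 no longer passed, while CHGA, SCG2, SCG3, PTPRN and PCSK2 did.

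**Figure D3:**
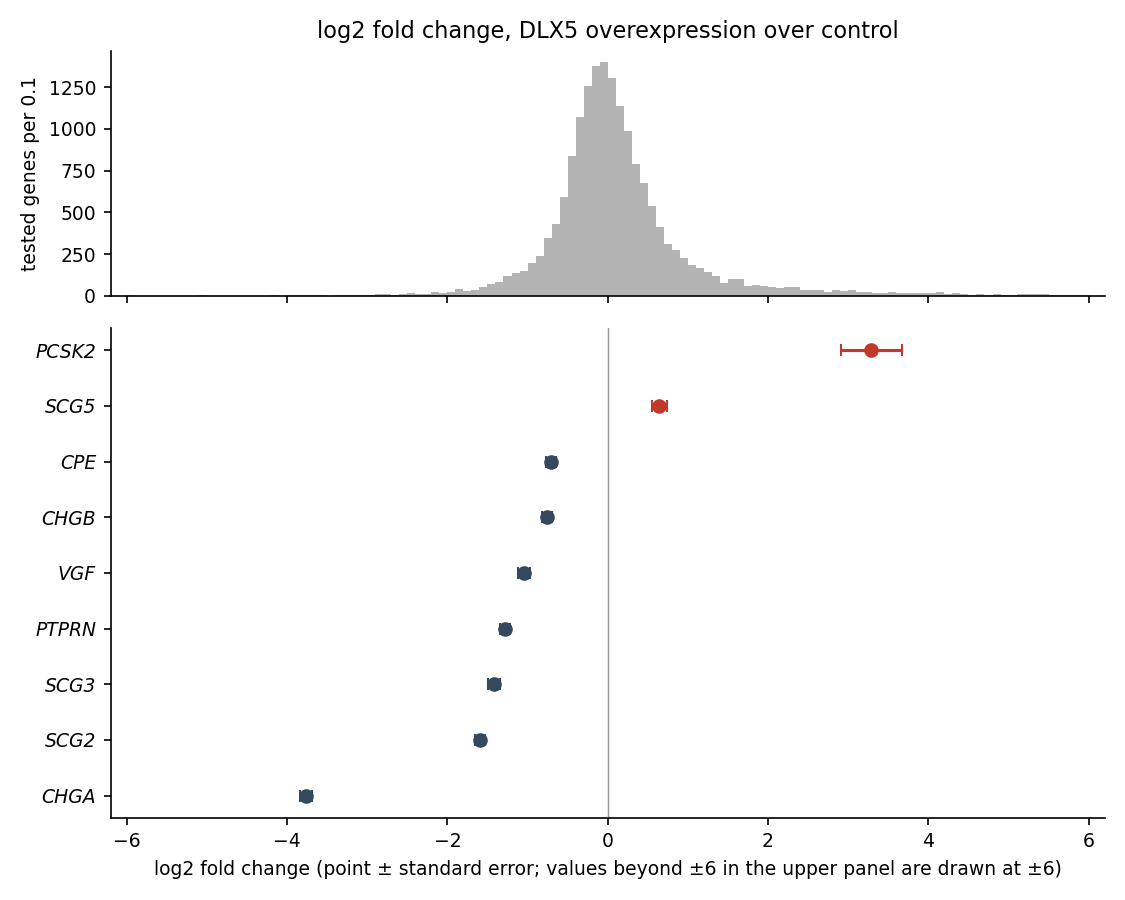
The lower panel gives the edgeR log2 fold change (DLX5 overexpression over control, point ± standard error) of the 9 tested genes; the upper panel counts all 17269 tested genes per 0.1 on the same axis. CHGA at -3.76 and PCSK2 at 3.29 lie in the tails, and 7 of the 9 genes are left of 0.

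The order of the 10 genes by FPKM differed between the groups. In DLX5 libraries the means ran VGF 184, CHGB 22.0, CPE 20.4, SCG2 17.8, CHGA 17.6, SCG5 13.6, SCG3 10.8, PTPRN 6.70, PCSK2 0.407 and PCSK1 0.0116 FPKM. In controls they ran VGF 380, CHGA 238, SCG2 53.9, CHGB 37.1, CPE 33.5, SCG3 28.7, PTPRN 16.3, SCG5 8.69, PCSK2 0.0399 and PCSK1 0.0227 FPKM. Neighbours whose libraries overlapped were CHGB with CPE and SCG2 with CHGA in DLX5 libraries, and PCSK2 with PCSK1 in controls. CHGA thus shared its level with SCG2 in DLX5 libraries, against the second place in controls, and SCG5 stood above SCG3 and PTPRN in DLX5 libraries alone.

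Summed over the 6 granin genes, the level was 254.8 to 280.1 FPKM in DLX5 libraries (mean 266 ± 13.0) and 710.2 to 818 FPKM in controls (mean 747 ± 61.1, SD, n = 3 each). As a share of all counts, granin genes held 0.0754% ± 0.00418 in DLX5 libraries and 0.226% ± 0.0173 in controls. The makeup of this pool also shifted. VGF made up 69.2% ± 1.81 of the summed granin FPKM in DLX5 libraries and 50.8% ± 1.92 in controls, and CHGA made up 6.60% ± 0.188 in DLX5 libraries and 31.9% ± 0.338 in controls. CHGB held 8.28% ± 0.459 in DLX5 libraries and 4.99% ± 0.375 in controls, and SCG5 held 5.13% ± 0.549 in DLX5 libraries and 1.17% ± 0.230 in controls. The shares of SCG2 (6.73% in DLX5 libraries, 7.27% in controls) and SCG3 (4.07% in DLX5 libraries, 3.88% in controls) overlapped between the groups. VGF and CHGB thus had larger shares with DLX5 although their own levels were lower; shares of a sum are tied to each other.

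**Figure D4:**
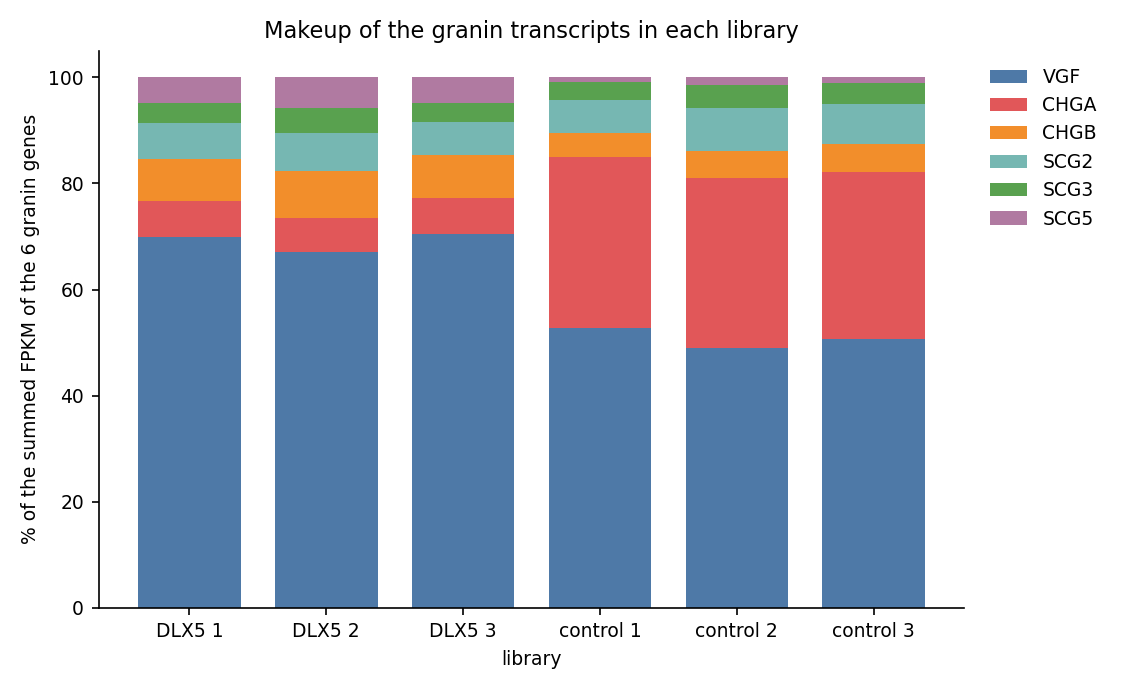
Makeup of the summed FPKM of the 6 granin genes in each library, DLX5 libraries at the left, each bar adding to 100%. CHGA takes 6.60% on average in DLX5 libraries and 31.9% in controls, and VGF takes 69.2% in DLX5 libraries and 50.8% in controls.

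Ratios between partners were compared in the same way. In each of the 6 ratios computed, the 3 DLX5 libraries lay apart from the 3 controls. The exact permutation p was 0.1 each time, the smallest possible. Every gene in these ratios already separated the groups by itself, and ratios of other gene pairs were not computed. In SCG5 per SCG2 and SCG5 per CPE the numerator rose and the denominator fell. The separation and p of those ratios were therefore fixed by the single genes and add no evidence. SCG5 per PCSK2, chaperone over client, was 30.4, 36.0 and 34.1 in DLX5 libraries, against 835, 199.8 and 136 in controls, where it rests on 1 to 7 PCSK2 counts per library. SCG5 remained in large excess over PCSK2 in every library. SCG5 per SCG2 was 0.763 ± 0.0510 in DLX5 libraries and 0.161 ± 0.0141 in controls, and SCG5 per CPE was 0.666 ± 0.0405 in DLX5 libraries and 0.260 ± 0.0387 in controls. CHGA per VGF was 0.0954 ± 0.00136 in DLX5 libraries and 0.628 ± 0.0226 in controls, so CHGA fell further than the most abundant granin. PTPRN per CPE was 0.328 ± 0.0146 in DLX5 libraries and 0.486 ± 0.0147 in controls.

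The likeness of the genes' profiles was described by the root mean square difference of centred log2 CPM over the 6 libraries, where 0 is an identical profile. Among the 9 tested genes the closest pair was CHGB and CPE, at 0.0450, followed by SCG2 and SCG3 at 0.114 and VGF and PTPRN at 0.146. CHGB and CPE thus moved in near parallel, although their products are a cargo protein and an enzyme. CHGA stood apart, with SCG2 as its nearest at 1.09, and PCSK2 was nearest to SCG5, at 1.27. Among 11730 other coding genes, those most like CHGA were LINGO4 (0.160), a leucine-rich repeat membrane protein, BMP7 (0.258), a bone morphogenetic protein ligand, and DCLK3 (0.313), a doublecortin-like kinase. LINGO4 had 1.98 ± 0.252 CPM in DLX5 libraries and 27.9 ± 1.63 CPM in controls, BMP7 had 2.47 ± 0.878 CPM in DLX5 libraries and 35.6 ± 2.44 CPM in controls, and DCLK3 had 1.18 ± 0.240 CPM in DLX5 libraries and 22.5 ± 2.70 CPM in controls. Those most like PCSK2 were ARMH4 (0.247), RAMP3 (0.306), a partner of the calcitonin receptor-like receptor, and ALPK1 (0.328), an innate immune kinase. ARMH4 had 16.8 ± 0.775 CPM in DLX5 libraries and 1.73 ± 0.683 CPM in controls, RAMP3 had 13.5 ± 1.40 CPM in DLX5 libraries and 1.55 ± 0.405 CPM in controls, and ALPK1 had 16.7 ± 0.521 CPM in DLX5 libraries and 2.25 ± 0.500 CPM in controls. With 2 groups of 3, likeness mostly measures a similar difference between groups.

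Of 17 granule partners (transporters, membrane proteins, release factors and modifying enzymes) 15 were tested, 11 were lower and 4 higher, beside 28.8% lower and 29.8% higher of all tested genes, with a median log2 fold change of -0.71. CYB561, the cytochrome that passes electrons across the granule membrane, had 75.8 CPM in DLX5 libraries and 380.8 CPM in controls, a log2 fold change of -2.33 ± 0.06. SYT4, a granule synaptotagmin, had 129 CPM in DLX5 libraries and 554 CPM in controls (-2.11 ± 0.07), and SLC18A1, which loads monoamines into granules, had 6.91 CPM in DLX5 libraries and 33.6 CPM in controls (-2.28 ± 0.11). All of these were lower with an edgeR adjusted p of at most 3.23e-16. PAM, the enzyme that amidates peptides inside granules, was higher, with 312 CPM in DLX5 libraries and 84.1 CPM in controls (1.89 ± 0.06, edgeR adjusted p = 2.80e-19). Further partners were picked after their values were seen. RAB27B, RAB27A and SYTL4, which act in granule docking, were the other 3 that were higher, with log2 fold changes of 1.68, 0.38 and 0.99. PTPRN2, the paralogue of PTPRN, changed by -0.82 ± 0.08 (edgeR adjusted p = 1.69e-09), and PCSK1N, which encodes the PCSK1 inhibitor proSAAS, by -0.35 ± 0.08 (edgeR adjusted p = 0.000468), at 78.5 FPKM in DLX5 libraries and 100.4 FPKM in controls.

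Of 15 genes listed for dense core granule biogenesis and related traffic 6 were lower, 3 higher and 6 did not pass. Of all tested genes 28.8% were lower and 29.8% higher. Their log2 fold changes ran from -0.43 to 1.13, with a median of -0.05. EIPR1, which works with the EARP complex, changed by -0.43 ± 0.07, VPS52, a subunit shared by the GARP and EARP complexes, by -0.35 ± 0.07, and HID1, a trans-Golgi protein, by -0.32 ± 0.07. VPS54, the subunit particular to GARP, was higher by 0.45 ± 0.07. All 4 passed with an edgeR adjusted p of at most 0.000303, and none passed when the change had to exceed 2-fold. The largest change in the list was that of BAIAP3, a calcium-binding release protein, named after its value was seen: it had 131 counts over the DLX5 libraries and 59 over the controls, a log2 fold change of 1.13 ± 0.29 (edgeR adjusted p = 0.00140).

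Of 11 genes of the convertase and carboxypeptidase families listed as widely expressed 6 were tested, and 4 of these were higher, beside 29.8% of all tested genes. The remaining 2, PCSK7 and CPXM1, named after their values were seen, did not pass, each with a log2 fold change of 0.04, and the median was 0.41. FURIN, the convertase of the trans-Golgi network, had 22.4 FPKM in DLX5 libraries and 11.8 FPKM in controls (0.93 ± 0.07, edgeR adjusted p = 3.40e-12). PCSK6, a secreted convertase, had 0.921 FPKM in DLX5 libraries and 0.297 FPKM in controls (1.64 ± 0.14, edgeR adjusted p = 1.94e-10). MBTPS1, the site-1 protease, was higher by 0.42 ± 0.06 and CPD, a carboxypeptidase of the trans-Golgi network, by 0.39 ± 0.07, both with an edgeR adjusted p of at most 1.16e-05. FURIN thus stood far above PCSK2 and PCSK1 in both groups, per kilobase.

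Of 28 genes listed as neuropeptide and peptide hormone precursors 13 were tested and 7 had no count in any library. Of those tested 5 were lower, 5 higher and 3 did not pass, beside 28.8% lower and 29.8% higher of all tested genes, and the median log2 fold change was -0.07. VIP, vasoactive intestinal peptide, had 57.9 CPM in DLX5 libraries and 214 CPM in controls (-1.89 ± 0.07). GAL, galanin, had 26.4 CPM in DLX5 libraries and 116 CPM in controls (-2.14 ± 0.08), and NPW, neuropeptide W, had 7.76 CPM in DLX5 libraries and 19.5 CPM in controls (-1.33 ± 0.12). All of these were lower with an edgeR adjusted p of at most 6.17e-10. NPPB, the precursor of B-type natriuretic peptide, had 2 counts over the DLX5 libraries and 79 over the controls, a scaled ratio of 0.0250 (95% counting interval 0.00298 to 0.0935). The fifth lower gene was NXPH1, and the 5 higher genes were CCK, NTS, NPY, NMB and NMU, all 6 named after their values were seen. CCK, cholecystokinin, had 73 counts over the DLX5 libraries and 2 over the controls, NTS, neurotensin, had 100 over the DLX5 libraries and 10 over the controls, and NPY, the common sympathetic peptide, had 37.7 CPM in DLX5 libraries and 24.8 CPM in controls. CCK and NTS passed the filter on low counts only through the DLX5 libraries, and NPPB only through the controls.

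**Figure D5:**
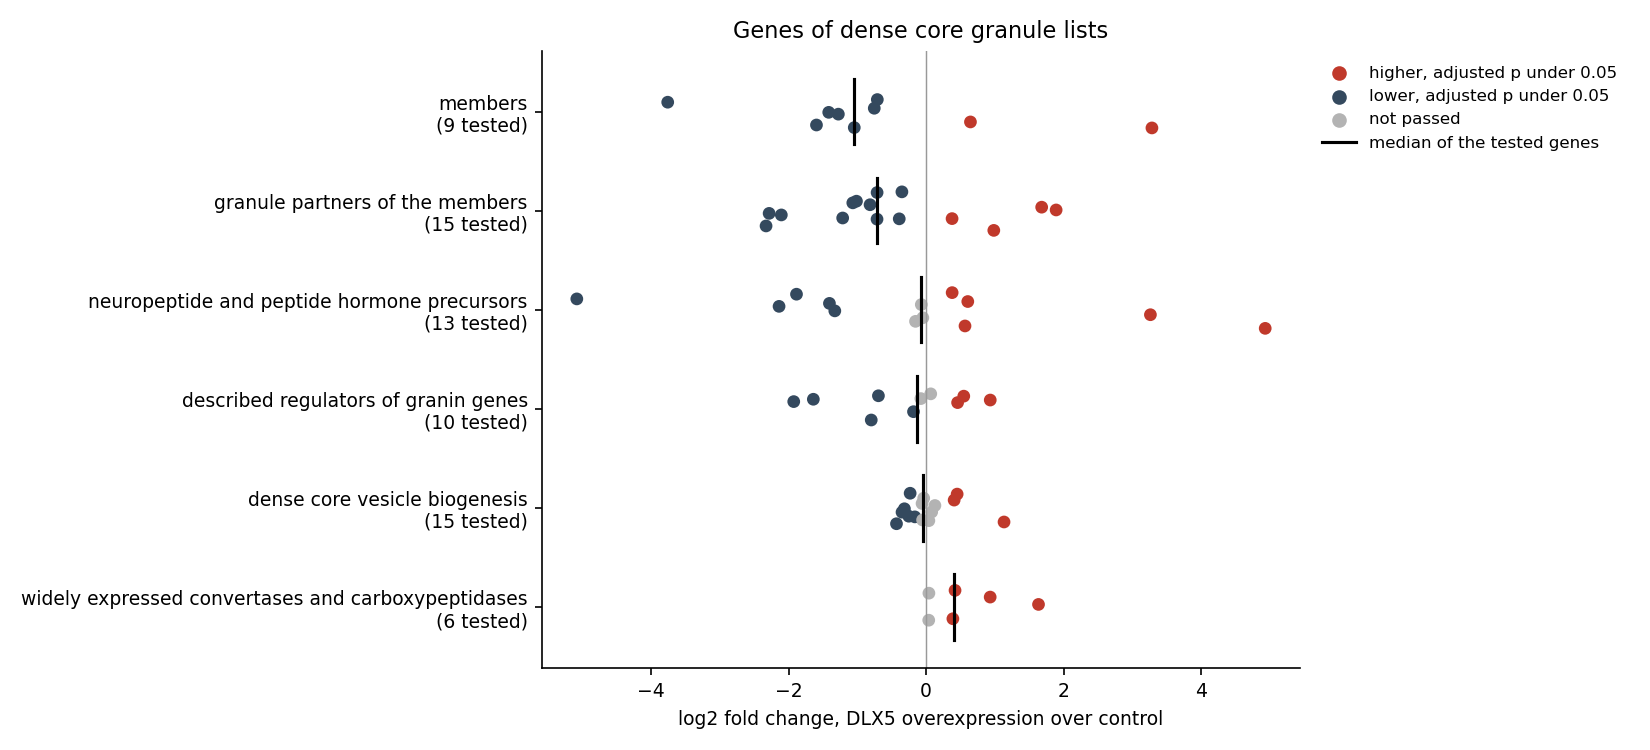
edgeR log2 fold change (DLX5 overexpression over control) of each tested gene in the 10 members and the 5 context lists; each point is a gene, coloured by whether it was higher, lower or did not pass, and the black line is the list median. The granule partners have a median of -0.71 with PAM and RAB27B far to the right, and the 6 tested genes of the widely expressed convertase and carboxypeptidase list lie at 0.04 or above.

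Factors described as regulators of granin genes were also measured. Of 12 genes 10 were tested, 5 were lower, 3 higher and 2 did not pass, beside 28.8% lower and 29.8% higher of all tested genes, and the median log2 fold change was -0.13. REST, the repressor that keeps neuronal and granin genes silent outside neural cells, had 7.46 FPKM in DLX5 libraries and 5.43 FPKM in controls, a log2 fold change of 0.46 ± 0.07 (edgeR adjusted p = 4.35e-06). RCOR2, a corepressor of the CoREST family, changed by -0.80 ± 0.07, with 42.3 CPM in DLX5 libraries and 73.6 CPM in controls. EGR1, an immediate early zinc finger factor, changed by -0.69 ± 0.08, and STAT3 by 0.93 ± 0.06. The edgeR adjusted p of these 3 was at most 7.44e-08. CREB1, which binds the CRE and was picked after its value was seen, changed by -0.18 ± 0.07 (edgeR adjusted p = 0.0284). INSM1, a neuroendocrine factor, had 1 count over the DLX5 libraries and 7 over the controls and was not tested. Whether any of these changes bears on the granin genes was not tested.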

How the data were processed

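Per the labels' protocols, Trizol RNA of SY5Y cells went into NEBNext Ultra libraries. The gene counts are the authors' deposited whole-number counts of reads per gene. The submitters' processing notes name HISAT2 2.0.5 and featureCounts 1.5.0-p3; no source used here gives a strand setting. Those notes also name hg19, but all 58735 genes match GENCODE 29 on GRCh38 in start, end and strand, so coordinates are given as GRCh38. The deposited FPKM values, per the file headers, were found to equal the counts divided by gene length and by a scaled library sum. The scale was 0.968 to 0.995 in DLX5 libraries and 1.03 in each control. FPKM and counts thus hold the same reads.

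Libraries were grouped by label (3 with DLX5 overexpression, 3 controls). Chi-square per degree of freedom was 2.18 to 4.76 between libraries of 1 group, where sampling noise alone gives about 1, so none was taken as a copy. Counts were tested with edgeR 4.0.16 (R 4.3.3): TMM scaling, filterByExpr (17269 genes kept of 33755 with any count), the two-sided quasi-likelihood test over all tested genes with Benjamini-Hochberg adjustment and a threshold of 0.05. CPM used TMM-scaled totals. The fit was first tested on simulated data in which few genes changed. Most tested genes were called here, a setting that the simulation did not cover. Alternatives used DESeq2 1.42.0, limma 3.58.1, other scalings and filters, and log2(FPKM + 1) and log2(FPKM + 0.1). Replicate numbers were checked as a pairing. Counting intervals are exact, at 95%, and cover counting error only.

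The 10 genes, the context lists and the marker lists were chosen with earlier results of these data known. The text names the 10 genes, DLX5, up to 4 genes with the smallest adjusted p in each context list, REST, INSM1, and the 3 coding genes (log2 CPM of at least 2) closest in profile to CHGA and to PCSK2; others are marked in the text, and 1 gene that the rule names is not reported here. Promoters were taken from RefSeq.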

Additional observations from a re-analysis of the deposited data

How the results depend on the processing

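The counts of 7 lower and 2 higher genes among the 10 were unchanged under every alternative scaling, filter, test and left-out library run, with 1 exception. When the change had to exceed 2-fold (glmTreat), 4 were lower and 1 was higher, and over the context lists 9 genes were lower and 5 higher, against 27 lower and 19 higher in the main test; the adjusted p of VGF was then 0.7505. Of the context genes taken by the naming rule, EIPR1, VPS52, VPS54, HID1, FURIN, MBTPS1, CPD, REST, RCOR2, EGR1 and STAT3 also lost their call there; other context genes with log2 fold changes between -1 and 1 cannot pass it either. Without the filter on low counts, 27 genes of the context lists were lower and 22 higher. With library totals and no scaling factors, the median log2 fold change of all tested genes was -0.07 and 44.15% of calls were higher, against -0.0018 and 50.90% with TMM. SCG5, the smaller of the 2 rises, ranged from 0.58 to 0.76 over the alternatives. PCSK2 had 0.44 on log2(FPKM + 1) and 1.88 on log2(FPKM + 0.1), against 3.29 in the main test, and leaving out 1 library gave 2.86 to 3.67.

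Same-numbered libraries correlated at 0.0069, 0.0944 and -0.0399 in their deviations from the group means. Differently numbered libraries correlated at -0.0964 to 0.0976, so the numbers were not taken to pair the libraries. With a replicate block, 7 of the genes were lower and 2 higher, and 5016 genes of the whole table were lower and 5208 higher, against 4969 and 5152 without it.

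Depth limits PCSK1 (3 counts over DLX5 libraries, 6 over controls), for which no direction can be given, and makes the control level of PCSK2 imprecise (14 counts over 3 libraries). FPKM and counts come from the same reads and are not independent.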
